A study of Homo sapiens with 4 samples.

Results

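The p53 target genes described here act in apoptosis and DNA repair: BBC3, BAX, FAS, TP53INP1, FDXR, RRM2B, XPC and DDB2, 8 genes in all. They were chosen by name, and their regions are the rows of each deposited list that overlapped the gene's hg19 span widened by 10 kb on each side. By that rule the 8 genes held 14 of 11604 regions of 53BP1, 41 of 62530 regions of S5p and 37 of 54600 regions of S2p, the forms of RNA polymerase II (Pol II) with phosphate on serine 5 or serine 2 of the C-terminal repeats. The lists came from chromatin immunoprecipitation with sequencing (ChIP-seq) of MCF10A, a non-tumour human breast epithelial cell line, in normal growth with no treatment. The series has 4 samples of 1 library each: the 3 ChIPs and an input, which is not analysed here. All samples share the line and the culture, so no value below has a spread between replicates or a second condition, and no test between samples was possible. Read depth is unknown.

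p53 is a transcription factor that is kept low in unstressed cells and is stabilised after DNA damage. It binds response elements made of a pair of decamers, near or inside genes whose products stop the cell cycle, start apoptosis or repair DNA, and MCF10A cells carry wild-type p53. 53BP1 binds damaged chromatin and steers double-strand break repair, and was first found as a partner of p53; the series title ties it to the transcriptional program of the p53 family. S5p marks Pol II that has just started, and S2p marks Pol II that elongates, with a known increase towards the 3' ends of genes.

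All 8 genes held a 53BP1 region, and each had a 53BP1 summit within 1 kb of its start, taken as the 5' end of the span. Ranked on the fold enrichment over background that the authors deposited, the leading 53BP1 regions were inside BBC3 (fold 18.5) and at the start of FDXR (fold 14.3). The weakest of the genes was RRM2B, whose best region had a fold of 4.46. Taken over the list, the 14 regions were ordinary: their median fold was 6.28, against 6.02 for all 53BP1 regions, and 8 of the 14 were above the list median, against 50.0% of all regions. The share of all genes with 53BP1 at the start was not computed, since no hg19 annotation was used here, so the 8 of 8 has no background over genes.

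**Figure D1:**
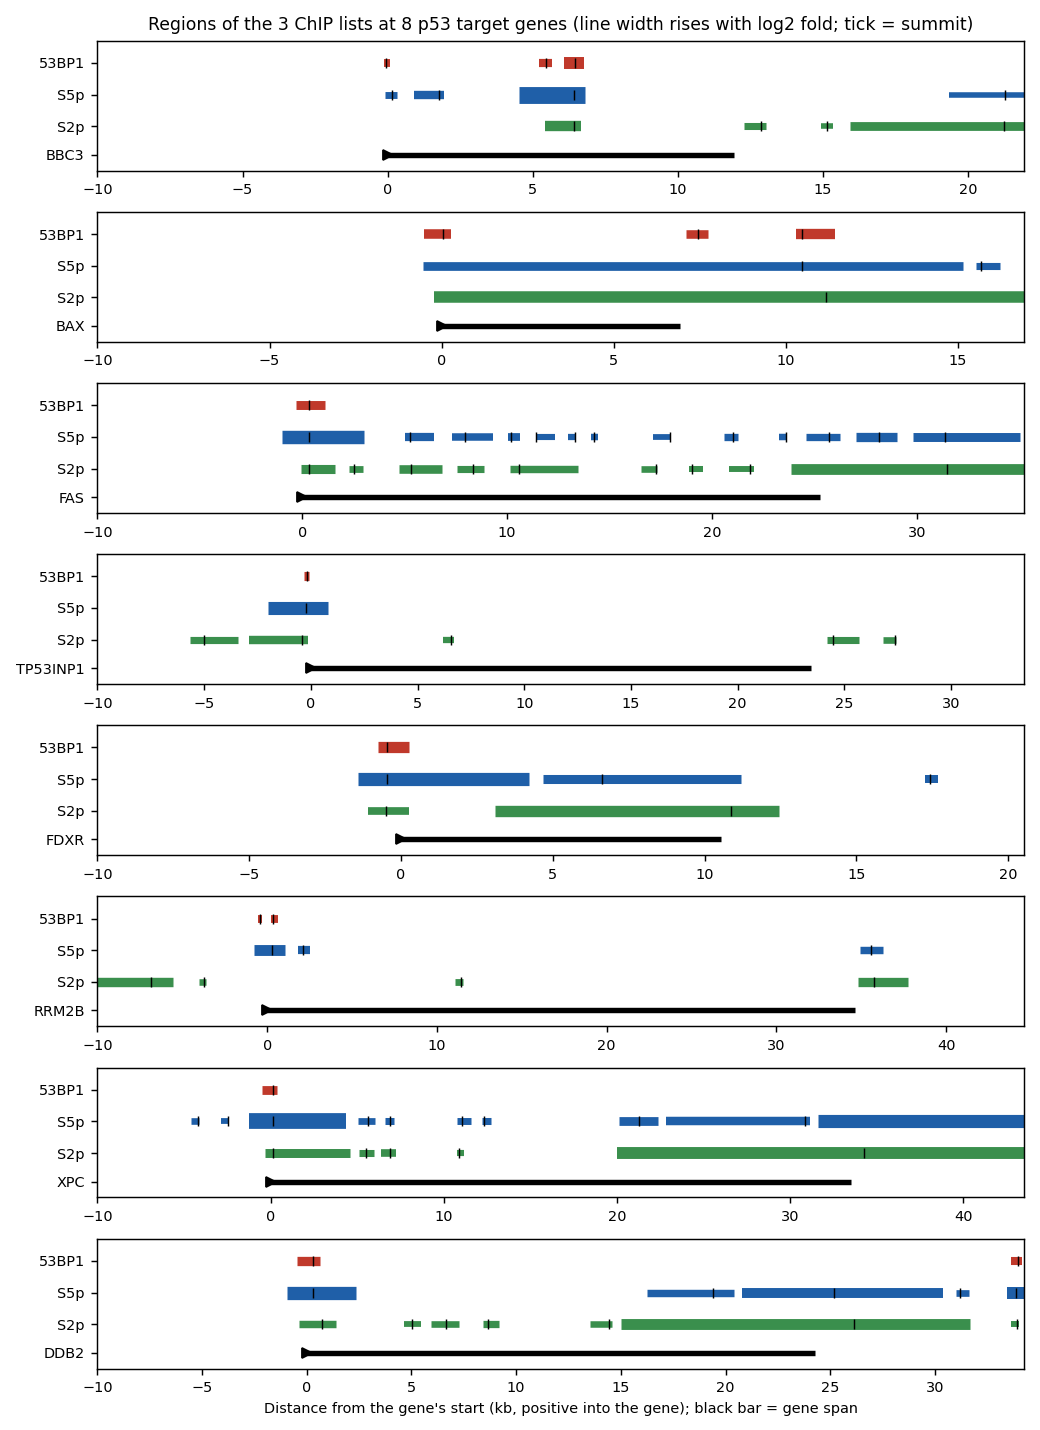
Regions of 53BP1 (red), S5p (blue) and S2p (green) at the 8 genes, by distance in kb from the gene's start, with the gene span in black and regions cut at 10 kb from the span. A 53BP1 region lies at each start, and only BBC3, BAX and DDB2 have others away from it.

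Sequences of 4 promoters are shown. At the starts, XPC carried the strongest S5p, FDXR the strongest 53BP1 region, and BBC3 weak regions only. DDB2 had an S5p fold close to that of FDXR (29.1 and 28.3), and its line holds a full p53 site. They are RefSeq sequences of build GRCh38.p14, given 5' to 3' on the gene's strand, and cover the 250 bases before the start. The DDB2 line is placed at the inner of the table's 2 starts and runs on past it to the end of a p53 site. The FDXR line is at the outer of 2. The positions are chr11:47214724-47214999 (+) for DDB2, chr3:14178602-14178851 (-) for XPC, chr17:74872995-74873244 (-) for FDXR and chr19:47232668-47232917 (-) for BBC3. Regions in the text are in hg19, and positions were not converted between the builds. Capitals mark exact matches, on either strand, to the p53 decamer consensus, the GC box (GGGCGG), the CCAAT box (CCAAT) and the TATA box (TATAAA), and no matches overlap in these lines.
DDB2: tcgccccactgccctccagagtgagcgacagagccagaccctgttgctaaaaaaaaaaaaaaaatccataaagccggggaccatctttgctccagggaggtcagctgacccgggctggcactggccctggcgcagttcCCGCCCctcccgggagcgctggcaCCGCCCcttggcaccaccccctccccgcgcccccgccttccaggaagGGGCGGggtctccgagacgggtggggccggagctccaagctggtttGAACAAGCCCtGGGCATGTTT
XPC: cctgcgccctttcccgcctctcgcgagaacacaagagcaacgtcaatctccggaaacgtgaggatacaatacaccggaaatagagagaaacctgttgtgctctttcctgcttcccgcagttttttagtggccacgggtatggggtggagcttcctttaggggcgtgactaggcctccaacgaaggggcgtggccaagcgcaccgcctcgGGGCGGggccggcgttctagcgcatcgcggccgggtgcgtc
FDXR: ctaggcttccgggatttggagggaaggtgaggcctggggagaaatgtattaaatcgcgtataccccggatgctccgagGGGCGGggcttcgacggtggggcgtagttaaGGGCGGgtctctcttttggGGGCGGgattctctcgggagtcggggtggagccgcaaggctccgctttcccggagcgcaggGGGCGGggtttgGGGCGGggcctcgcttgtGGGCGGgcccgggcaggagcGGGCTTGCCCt
BBC3: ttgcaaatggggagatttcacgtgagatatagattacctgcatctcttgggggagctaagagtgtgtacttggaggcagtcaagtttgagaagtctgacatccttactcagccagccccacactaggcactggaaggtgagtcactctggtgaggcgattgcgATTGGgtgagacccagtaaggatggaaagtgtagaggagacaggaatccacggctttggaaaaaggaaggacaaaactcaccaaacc

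The last capitals of the DDB2 line, from base 6 after that start, are a full p53 site of 21 bases: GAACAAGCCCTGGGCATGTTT, a pair of perfect decamers 1 base apart. A full site, with 0 to 13 bases between exact decamers, was in 10 of 35116 promoter windows of the table when the 50 bases after the start were included (0.0285%), and in 9 (0.0256%) in the 250 bases before it. In those 250 bases 0 of the 6 genes in the table held one, so the DDB2 site is counted only in the longer window. The full site was not a planned motif, and the longer window was chosen after the data were seen. A single decamer lay in 1957 windows of 250 bases (5.57%). Among the 6 genes in the table, with 10 starts, FAS and FDXR held 1 such decamer each before a start. In the FDXR line it is the last run of capitals and ends next to the start. The GC box was found in 5 of the 6 genes (all but BBC3), against 42.6% of all windows, and in the FDXR line it occurs 6 times. The CCAAT box was found in BBC3, BAX, FDXR and DDB2, against 32.0% of windows, and the TATA box in 0 of the 6, against 10.7%. For FDXR and DDB2 the CCAAT matches are at the other start of each gene, which is not printed. Genes with several starts in the table had more windows to match in. These matches describe letters and do not show that a factor binds. TP53INP1 and RRM2B had no entry.

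BBC3 encodes PUMA, a BH3-only protein that frees BAX and BAK from their BCL2-family inhibitors. Its span is chromosome 19, 47724081 to 47736023, minus strand. The strong regions lay far inside the gene, not at its 5' end. The 53BP1 region at 47729265 to 47729937 had a fold of 18.5 (98.1th percentile, rank 223 of 11604), with its summit 6460 bp into the gene. The S5p region there, at 47729238 to 47731483, had a fold of 102 (99.6th percentile, rank 228 of 62530). The S2p region, at 47729356 to 47730615, had a fold of 10.5 (91.5th percentile). All 3 summits fell close together: the 53BP1 summit was 41 bp from the S5p summit and 22 bp from the S2p summit. A weaker 53BP1 region, with a fold of 4.91, lay in the same S5p region at 47730349 to 47730811. RefSeq places MIR3190 and MIR3191 inside BBC3, but their distance from these regions was not determined.

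At the 5' end of BBC3 the signal was much lower. A 53BP1 region of 223 bp with a fold of 4.44 (22.8th percentile) crossed the start, on an S5p region of 434 bp with a fold of 3.18 (32.5th percentile). No S2p region met either. S5p regions this weak rarely held 53BP1: of the 1251 S5p regions in the same of 50 equal parts of the list by fold, 3 did (0.240%), BBC3 included. A further S5p region near the 5' end, from 907 to 1938 bp into BBC3, had a fold of 5.26 (69.7th percentile). It met neither 53BP1 nor S2p. S2p past the 3' end, on the side of SAE1, reached a fold of 6.13 in a region whose summit was 9300 bp beyond the gene. The part of SAE1 transcription in that region was not tested.

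BAX encodes the effector that permeabilises the outer mitochondrial membrane. Its span is short, chromosome 19, 49458117 to 49465055, plus strand, and it was the only one of the 8 that lay wholly inside both an S5p and an S2p region. The S5p region ran from 49457591 to 49473276, 15686 bp with a fold of 5.97 (73.4th percentile), and the S2p region from 49457912 to 49493457, 35546 bp with a fold of 15.8 (95.2nd percentile). Neither summit was in BAX: they lay 10488 and 11186 bp from its start, beyond its end, on the side of FTL, the ferritin light chain gene that follows it in RefSeq. Because a region carries 1 fold, the Pol II signal at the BAX start alone cannot be read from these lists.

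53BP1 was found in 3 places along that stretch. The region crossing the BAX start, at 49457619 to 49458382, had a fold of 7.93 (72.2nd percentile), with its summit 55 bp into the gene. Another at 49465210 to 49465866, just past the BAX end, had a fold of 5.66. The strongest, at 49468412 to 49469566, had a fold of 10.4 (87.1st percentile) and its summit was 1 bp from the S5p summit. The highest 53BP1 value counted for BAX was thus downstream of the gene, and the one at its start ranked lower. The part of FTL in these values was not tested.

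FAS encodes the death receptor CD95, which starts apoptosis from the cell surface when bound by its ligand. The span used is chromosome 10, 90750288 to 90775542, plus strand; RefSeq gives FAS a longer span in GRCh38, so the last regions counted as downstream may lie in the gene. All 3 lists had a region at the start. The 53BP1 region, at 90749988 to 90751393, was the widest of the 14 at 1406 bp, with a fold of 6.41 (55.7th percentile). The S5p region at 90749305 to 90753301 had a fold of 30.6 (92.6th percentile) and the S2p region at 90750234 to 90751878 a fold of 6.76 (84.0th percentile). The 53BP1 summit, 312 bp into the gene, was 7 bp from that of S5p and 30 bp from that of S2p. Further inside, 9 S5p regions with folds of 2.13 to 5.00 and 7 S2p regions with folds of 2.25 to 5.74 followed, and 0 of these 16 met 53BP1. That is near the background: S5p regions below the strongest of 5 equal parts of the list by fold held 53BP1 in 0.144% to 3.71%, depending on the part, and 13.9% of all S2p regions did. RefSeq has ACTA2, the smooth muscle actin gene, and FAS-AS1 overlapping FAS, and their part in these values was not tested.

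TP53INP1 encodes a stress-induced protein that promotes p53 phosphorylation and cell death. Its span is chromosome 8, 95938200 to 95961639, minus strand. The signal sat at the start and hardly entered the gene. The 53BP1 region at 95961716 to 95961966, 251 bp wide, lay just upstream of the start with a fold of 6.80 (60.2nd percentile). Its S5p region, 95960823 to 95963639, had a fold of 27.3 (91.4th percentile), and was the only S5p region within 10 kb of the gene. The S2p region met there, 95961761 to 95964535, had a fold of 5.34 (76.9th percentile) and ran from 122 to 2896 bp upstream, away from the gene. Inside the gene the S2p list had 1 region, of 504 bp with a fold of 2.54. Past the 3' end it had regions with folds of 3.35 and 2.89, their summits 1010 and 3937 bp beyond the gene. RefSeq has NDUFAF6 overlapping TP53INP1, and its part in the upstream S2p was not tested.

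FDXR encodes ferredoxin reductase, a mitochondrial enzyme that passes electrons to ferredoxin and is a known p53 target linked to cell death under oxidative stress. Its span is chromosome 17, 72858619 to 72869156, minus strand. The start held the strongest 53BP1 region of any of the 8 starts, at 72868879 to 72869922, with a fold of 14.3 (95.7th percentile, rank 491). The S5p region below it, 72864923 to 72870567, had a fold of 28.3 (91.8th percentile), and the S2p region, 72868883 to 72870240, a fold of 4.16 (63.7th percentile). The S5p summit was 6 bp and the S2p summit 19 bp from the 53BP1 summit, which was 471 bp upstream of the start. The 53BP1 fold was high for its S5p: among 1251 53BP1 regions on S5p regions of the same of 50 equal parts by fold, it stood at the 99.4th percentile. FDXR was not alone in a high value by this measure: the BAX regions ran from 79.1 to 97.3, among 55 regions. The BAX regions share 1 S5p region of 15686 bp, at the 73.4th percentile by fold and the 90.1st by −log10 q-value. Its 1 fold does not give the S5p at each 53BP1 region, so BAX cannot be set beside FDXR here. The regions of FAS, TP53INP1, RRM2B and DDB2 ran from 34.3 to 65.4. S2p was stronger towards the 3' end, with a region of 9369 bp and a fold of 15.0 (94.8th percentile) whose summit lay 334 bp past the end.

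RRM2B encodes p53R2, the p53-inducible small subunit of ribonucleotide reductase, which supplies deoxynucleotides for repair. Its span is chromosome 8, 103216729 to 103251346, minus strand. It had a pair of weak, narrow 53BP1 regions at the start: 103250730 to 103251121 (fold 4.39, 21.5th percentile) and 103251657 to 103251905 (fold 4.46, 23.0th percentile). Their summits stood 335 bp inside and 400 bp upstream of the start, on either side of it, and neither region covered it. Both were on the same S5p region, 103250267 to 103252136, with a fold of 12.7 (84.4th percentile) and its summit 283 bp inside. S2p was absent from the list at this start. Of the 1250 S5p regions in the same of 50 parts by fold, 572 held 53BP1 (45.8%). S2p past the 3' end had a fold of 7.30, with its summit 1156 bp beyond the gene, and this was not the strongest S2p region within 10 kb of RRM2B.

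XPC encodes the protein that recognises helix distortion in global genome nucleotide excision repair. Its span is chromosome 3, 14186647 to 14220172, minus strand, and LSM3, which encodes a component of spliceosomal small nuclear ribonucleoproteins, is the next gene upstream. The S5p region at the start, 14215847 to 14221416, had a fold of 69.6 (98.9th percentile, rank 717), the highest at any of the 8 starts. The 53BP1 region, 14219825 to 14220673, had a fold of only 6.16 (52.5th percentile). The S2p region, 14215598 to 14220512, had a fold of 6.49 (83.0th percentile). The summits of 53BP1, S5p and S2p lay 108, 121 and 110 bp inside the gene. Among 1939 53BP1 regions on S5p regions of the same of 50 parts by fold, the XPC region stood at the 31.9th percentile, against the 90.3rd for the strong BBC3 region. Which of XPC and LSM3 contributed to the start signal was not tested. At the 3' end an S2p region of 29263 bp with a fold of 18.1 (96.0th percentile) had its summit 736 bp past the gene, on the side of TMEM43.

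DDB2 encodes the subunit of the UV-damaged DNA-binding complex that finds UV lesions and hands them to XPC. Its span is chromosome 11, 47236493 to 47260769, plus strand. At the start the 53BP1 region, 47236008 to 47237126, had a fold of 7.25 (65.6th percentile), and reached from 485 bp upstream to 633 bp inside. The S5p region, 47235529 to 47238865, had a fold of 29.1 (92.1st percentile) with its summit 15 bp from that of 53BP1, and the S2p region, 47236132 to 47237885, a fold of 3.79 (55.3rd percentile). The p53 site printed above belongs to a DDB2 start of another build, so its distance from these summits was not determined. Further along the gene S2p was listed with 4 regions of fold 2.15 to 3.56 before a region of 16697 bp with a fold of 12.7 (93.5th percentile) whose summit was 1861 bp past the end. A further 53BP1 region, 47270138 to 47270671 (fold 4.73), began 9369 bp beyond the gene on an S5p region with a fold of 18.7, on the side of ACP2.

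**Figure D2:**
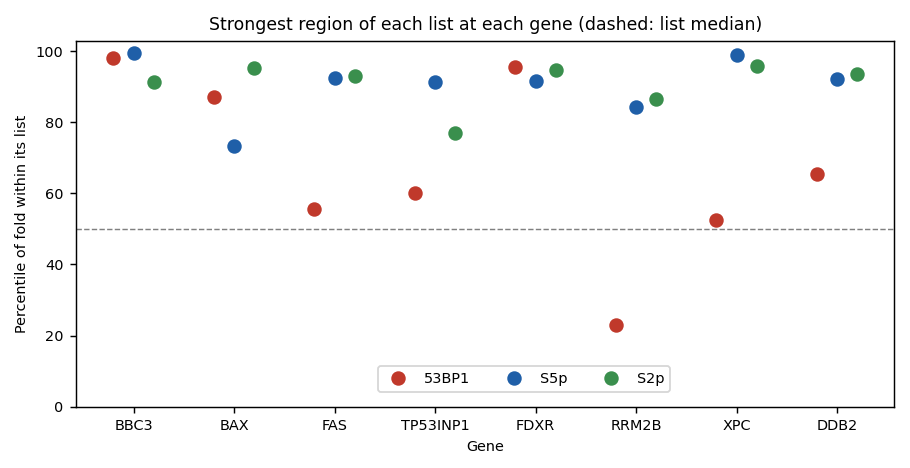
Percentile, within its own list, of the fold of the strongest 53BP1, S5p and S2p region at each gene; the dashed line is the list median. S5p and S2p are above the 73rd percentile at all 8 genes, while 53BP1 runs from 23.0 for RRM2B to 98.1 for BBC3.

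Set side by side, the genes covered a wider range of percentiles in 53BP1 than in either form of Pol II. In fold, S5p had the widest range, from 5.97 (BAX) to 102 (BBC3). The strongest 53BP1 fold ran from 4.46 (RRM2B) to 18.5 (BBC3), and the strongest S2p fold from 5.34 (TP53INP1) to 18.1 (XPC). Each gene's value is its highest, from 1 to 3 regions of 53BP1, 1 to 13 of S5p and 1 to 9 of S2p. The contrast in percentiles thus depends on the scale. The strongest 53BP1 region per gene ranged from the 23.0th to the 98.1st percentile of its list (median 62.9), the strongest S5p from the 73.4th to the 99.6th (median 92.0) and the strongest S2p from the 76.9th to the 96.0th (median 93.3). The 5 genes grouped with apoptosis (BBC3, BAX, FAS, TP53INP1 and FDXR) had a median of 87.1 for 53BP1 (55.7 to 98.1), against 52.5 for the 3 repair genes (23.0 to 65.6). At the starts alone the medians were closer, 60.2 (22.8 to 95.7) against 52.5 (23.0 to 65.6), since the top region of BBC3 is inside the gene and that of BAX beyond its end. The ranges overlap, and with genes of 1 library the difference was not tested. For S5p the medians were 91.8 and 92.1, and for S2p 93.1 and 93.5.

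**Figure D3:**
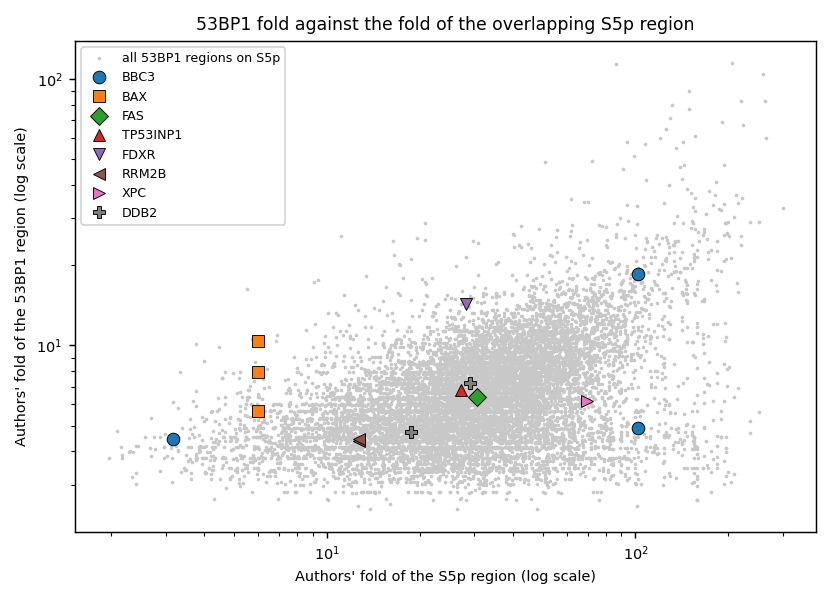
The authors' 53BP1 fold against the fold of the overlapping S5p region, both on log scales, for all overlapping pairs (grey) and for the 14 regions at the 8 genes (symbols). FDXR lies near the upper edge of the grey points at its S5p fold. XPC and the weaker BBC3 region inside the gene lie below the middle of the points at similar S5p fold (31.9th and 21.8th percentiles).

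The 53BP1 and S5p summits lay close together at most of the genes. At 7 of the 8 genes the strongest 53BP1 summit was within 50 bp of the strongest S5p summit, at distances of 1 bp (BAX) to 41 bp (BBC3). At RRM2B they were 683 bp apart. The other 53BP1 region of RRM2B, with nearly the same fold (4.39 against 4.46), had its summit 52 bp from that S5p summit. The whole lists have no share at this measure here, so the 7 of 8 has no background. Counted over all pairs in which the 53BP1 summit lay inside the S5p region, 8 of 14 were within 100 bp, against 55.4% in the whole lists, with median distances of 46.5 bp at these genes and 78.0 bp in the lists. For S2p it was 5 of 11, against 37.6%, with medians of 233 and 177 bp. These shares are near those of the whole lists. Relative to the gene starts, the summits had no common side: the strongest 53BP1 summit at a start ran from 471 bp upstream (FDXR) to 312 bp inside (FAS), and 4 of 8 were inside.

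**Figure D4:**
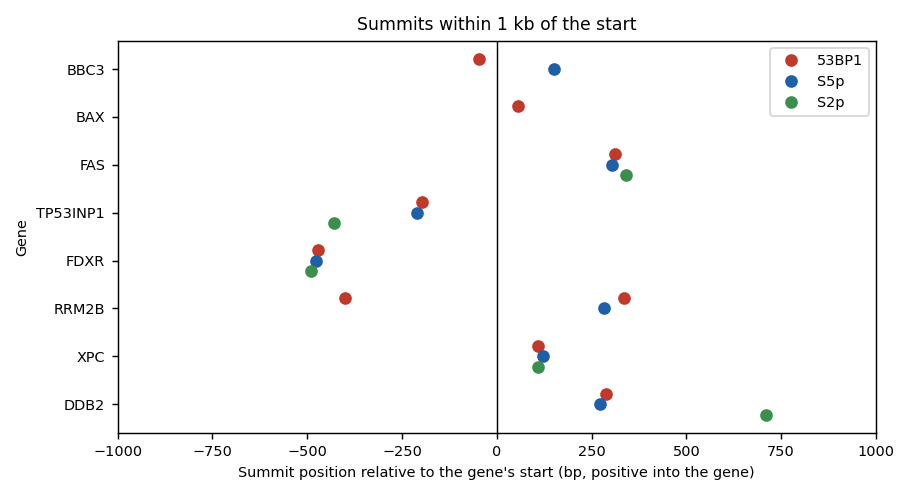
Position of every 53BP1, S5p and S2p summit within 1 kb of a gene start, in bp, positive into the gene. At FAS, FDXR and XPC all 3 summits nearly coincide, while BBC3, BAX and RRM2B have no S2p summit in the window.

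Seen from 53BP1, the overlaps at the 8 genes were close to those of the whole list. All 14 53BP1 regions met S5p (100%, exact Clopper-Pearson 95% interval 76.8 to 100), against 97.6% of all 53BP1 regions. S2p was met by 11 of 14 (78.6%, 49.2 to 95.3), against 78.9% of all; the 3 without S2p were the start of BBC3 and both regions of RRM2B. From the side of Pol II, 11 of 41 S5p regions held 53BP1 (26.8%, 14.2 to 42.9), against 15.2% of all S5p regions, and 8 of 37 S2p regions did (21.6%, 9.83 to 38.2), against 13.9%. With 50% of the Pol II region required to be covered, these shares were 4.88% and 13.5%. The whole lists have no share at that setting here, so these cannot be set against 15.2% and 13.9%. In the strongest of 5 equal parts of the S5p list by fold, 9 of 10 held 53BP1, against 71.4% of that part. In the part next below it was 1 of 10, the wide BAX region, against 3.71%. In the 3 weaker parts, from the middle down, it was 0 of 6, 1 of 8 (the start of BBC3) and 0 of 7, against 0.536%, 0.200% and 0.144%. The 9 of 10 and the 11 of 41 include the S5p region of 30796 bp that reaches the 3' end of XPC. None of the 14 53BP1 regions lay on it. It was counted through a 53BP1 region 19784 bp from XPC, which is outside the rule. S5p itself met S2p in 31 of 41 regions, against 60.2% of all, and S2p met S5p in 23 of 37, against 54.9%. The intervals cover counting error only and take regions as independent, while several regions here share a gene.

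At 4 of the 8 genes (FAS, FDXR, XPC and DDB2) S5p was strongest at the start and S2p past the 3' end, and at BBC3, BAX and TP53INP1 both were strongest in the same place. The strongest S5p region had its summit within 1 kb of the start at 6 of 8 genes, all but BBC3 and BAX, and so did the strongest 53BP1 region at the same 6. The strongest S2p region had its summit past the 3' end at 5 of 8, by 334 bp (FDXR), 736 bp (XPC), 1861 bp (DDB2), 4248 bp (BAX) and 6219 bp (FAS). At TP53INP1 it was at the start, and at BBC3 inside the gene, and RRM2B is not counted here. Where regions run into the next gene, the signal of neighbours cannot be told apart from that of the target.

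**Figure D5:**
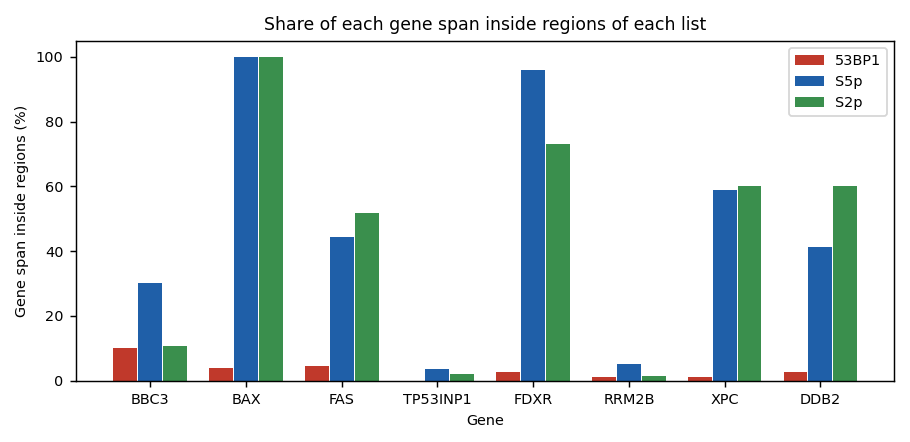
Percent of the bases of each gene span that lie inside regions of 53BP1, S5p and S2p. BAX is wholly covered by both forms of Pol II, and TP53INP1 and RRM2B are covered over at most 5.23% by either.

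The share of the gene inside Pol II regions ran from nearly none to all of it. S5p covered 100% of BAX, 95.9% of FDXR, 58.9% of XPC, 44.5% of FAS, 41.2% of DDB2, 30.2% of BBC3, 5.23% of RRM2B and 3.49% of TP53INP1. S2p covered 100%, 73.2%, 60.2%, 51.7%, 60.2%, 10.6%, 1.46% and 2.15% of the same genes. RRM2B and TP53INP1 thus had S5p and 53BP1 at the start with little of either Pol II form listed along the gene, while XPC and DDB2, also long genes, were covered over more than 40% by each. 53BP1 covered between 0% (TP53INP1, whose region lies just outside the span) and 10.2% (BBC3). Over all 170536 bp of the 8 spans, the covered share was 2.49% for 53BP1, 37.7% for S5p and 38.0% for S2p. An uncovered stretch was not listed at this depth, and is not shown to lack Pol II.

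At the edge of the rule, the outermost 53BP1 region counted began 9369 bp from DDB2 (fold 4.73), and the nearest one not counted lay 19784 bp from XPC (fold 6.92). For S5p these were 9184 bp from DDB2 (fold 18.7) and 10005 bp from BAX (fold 4.70), and for S2p 9353 bp from DDB2 (fold 2.26) and 11545 bp from the same gene (fold 4.82).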

How the data were processed

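Chromatin of formaldehyde-fixed cells was sheared by sonication, and the NEBNext Ultra II DNA kit was used for the libraries, per the labels' protocols. Samples were grouped by their titles. The submitters' processing notes name hg19 and bcl2fastq 2.20.0.422. Which aligner and peak caller were used, with what settings and control, and whether reads were pooled, is not given in the sources used here. Each deposited region has a fold, which is the authors' ratio of enrichment over background, a deposited −log10 p-value and −log10 q-value, and a deposited score. For 100% of regions that score lay within 1 of 10 times the q-value column. Position, width and summit offset were used as deposited. Rows on sequences other than chromosomes 1 to 22 and X were removed (1 of 53BP1, 2 of S5p, 1 of S2p). Folds were ranked within each list only.

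The spans, the genes and the lists were chosen with earlier results of these data known. All 8 genes are named. Gene strands were set by hand; 6 of 6 in the RefSeq promoter table had the same strand. In the RefSeq gene table (GRCh38.p14) all 8 symbols were on the same chromosome and 7 of 8 spans had the same length within 5%; FAS did not. That table was used for names and neighbours only. Overlap meant at least 1 bp. Shares have exact Clopper-Pearson 95% intervals. No test between samples was possible with 1 library per ChIP. Other pathway genes and cell type markers were not analysed here for want of an hg19 annotation, so the epithelial identity of the cells was not checked. The comparison of 53BP1 folds within 50 equal parts of the S5p list was chosen after the lists were seen. Overlap, percentile and coverage functions were tested on simulated data. Alternatives were other widenings, a −log10 q-value limit of 5, summits in place of regions, 50% coverage, other distances to the start and ranking by −log10 q-value. The strongest S2p region near RRM2B is not reported here. Computation was in Python 3.11.15 (pandas 2.3.3, numpy 2.4.6, scipy 1.17.1), and figures were drawn with matplotlib 3.10.9.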

Additional observations from a re-analysis of the deposited data

How the results depend on the processing

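Every 53BP1 region counted met S5p under each of the 6 alternatives run (9 of 9 to 15 of 15), and all 8 genes kept a 53BP1 region except without widening (7, TP53INP1 lost) and at a −log10 q-value limit of 5 (7, RRM2B lost). At that limit 9 of 9 remaining 53BP1 regions met S2p (100%), 6 of 8 starts kept a 53BP1 summit, and the covered shares of the spans were 1.94% for 53BP1, 33.5% for S5p and 32.8% for S2p, because the limit removes weak regions. With no limit, 6 of 8 starts lay inside a 53BP1 region. When 50% of a region had to be covered, 4.88% of S5p regions and 13.5% of S2p regions held 53BP1. At the −log10 q-value limit of 5 these shares were 30.8% and 33.3%. No shares of the whole lists are given under these alternatives, so none of these shares has a background here. The median percentile of the strongest 53BP1 region was 63.6 by −log10 q-value and 65.6 without widening. A whole promoter window, an alternative chosen after seeing the data, gave the p53 decamer in 3 genes in place of 2. No paired analysis was possible because there is 1 library per ChIP. The unknown depth limits every absence: a region not listed was not detected.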

Other observations

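Between 10 and 20 kb from the genes there were 1 further 53BP1 region, 7 further S5p regions and 12 further S2p regions. 53BP1 was met by 0 of the 7 S5p and 1 of the 12 S2p regions, against 15.2% and 13.9% in the whole lists. The 53BP1 region, on chromosome 3 at 14165798 to 14166863 (hg19), had a fold of 6.92 (61.3rd percentile) and lay downstream of XPC. It was on the S5p region of 30796 bp that also reaches the XPC end and had a fold of 27.8. That S5p region is among the 11 of 41 counted above as holding 53BP1. Upstream of BBC3 the only further region was S5p with a fold of 6.06, its summit 11422 bp from the start. Beyond BAX an S5p region of 10831 bp with a fold of 10.2 held no 53BP1.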
